A study of Mus musculus with 12 samples.

Results

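The genes of DNA replication and S phase were examined in epidermal scrapings of mice without epidermal Pparg. These are 48 genes chosen by name, from the loading of the replicative helicase to the repair of stalled forks, and all 48 were among the 14533 genes of the count table. Dorsal epidermis was scraped from frozen, untreated skin of 12 C57BL/6 mice, with 1 mRNA library per mouse. The 6 WT mice carried Pparg flox/flox without Cre, and the 6 Pparg-/-epi mice carried Pparg flox/flox and 1 copy of a Cre transgene under the keratin 14 promoter. The floxed alleles are thus shared by both groups, and the Cre is placed in basal keratinocytes and in what derives from them, follicle and sebaceous gland included. The mice were between 8 and 13 weeks old by the labels, 3 WT females and 4 Pparg-/-epi females among them. WT mice are numbered 1 to 6 and Pparg-/-epi mice 7 to 12.

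Before a cell copies its DNA, ORC, Cdc6 and Cdt1 load the Mcm2 to Mcm7 helicase on origins in G1, a step called licensing. Cyclin E with its kinase and the E2F factors then drive entry into S phase, where Cdc45 and GINS switch the helicase on and polymerases follow on the clamp Pcna. In healthy epidermis this takes place in the basal layer and in the growing hair follicle, and cells that differentiate leave the cycle. The RNA here is from all cells of a scraping, so more cells in S phase and more RNA per cell cannot be told apart.

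Library totals ran from 10120840 to 18851255 counts, and the lowest count of any member in any library was 14. The targeted gene, Pparg, was counted 59, 269, 5, 15, 58 and 13 times in the WT mice, and 100, 107, 89, 16, 32 and 25 times in the mice with Cre. The groups overlapped, and because reads were summed over the whole gene while Cre removes only part of it, Pparg does not check the labels. Keratin 5, which marks basal keratinocytes, was between 3155 CPM (counts scaled to equal library size) and 7013 CPM in all 12 mice. Transcripts of dermal cells were present as well, and Col1a1, a fibroblast collagen, ran from 423 to 13798 CPM. The mouse names hold a breeding number, and 4 of the 6 WT mice share one that no Pparg-/-epi mouse has. In turn, 3 of the 6 Pparg-/-epi mice have earlier numbers than any WT mouse, so breeding and genotype cannot be fully told apart.

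Replication genes were slightly higher in Pparg-/-epi mice, and a few of them clearly so. Of the 48 members, 40 had a fold change above 0 on the log2 scale and 8 below, with a median of 0.24, where the median of all genes was -0.01. An altered gene was one with an adjusted p under 0.05 and a log2 fold change of at least 0.6 in size. By this rule 4 members (8.33%) were altered, all higher in Pparg-/-epi mice, against 5.19% of all genes altered in that direction. No member was altered and lower, against 5.08% of all genes. At an adjusted p under 0.05 and any size of change, 7 members (14.6%) rose, where 7.54% of all genes did, and 0 fell, where 7.84% of all genes did (0 also with edgeR's likelihood ratio test and with DESeq2). At an unadjusted p under 0.05 in edgeR's test, 13 members were higher and 0 lower. The share of all genes was not counted at that cut, so the 13 are not read as an excess. The 4 altered genes were Clspn, Mcm10, Ccne1 and Exo1, and E2f8, Mcm3 and Cdc6 passed the adjusted p alone. At the share of all genes, 2.49 altered members and 3.62 members past the adjusted p would be counted, so the excess amounts to only a few genes.

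The 4 altered members were also the only members without overlap, all mice of the knockout group exceeding the whole WT group, a separation that 3.95% of all genes had. Leaving out each mouse in turn, between 4 and 6 of the 48 members were altered, and Clspn, Mcm10, Ccne1 and Exo1 were among them each time. In these fits between 512 and 1303 of the 14533 genes were altered and higher. The most were called without WT mouse 2, where 4 members were altered, about the same share as of all genes. In the 7 female mice alone, 2 members (Mcm10 and Clspn) were altered, against 2.02% of all genes altered and higher. Among the mice of later breeding numbers alone, 6 WT against 3 Pparg-/-epi mice, 1 member was altered, Clspn, against 1.82% of all genes, about the same share. That last comparison was added after seeing the data. With the breeding numbers as 2 blocks in the model 4 members were altered, Clspn, Mcm10, Ccne1 and Cdc6, against 3.05% of all genes. The early block held 3 Pparg-/-epi mice and no WT mouse. The genotype difference in that model therefore also came from the later mice, and the model is not a separate check. For Mcm10 the log2 fold change was 0.87 with the blocks and 0.85 among the later mice alone, and for Clspn 0.91 and 0.89.

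**Figure D1:**
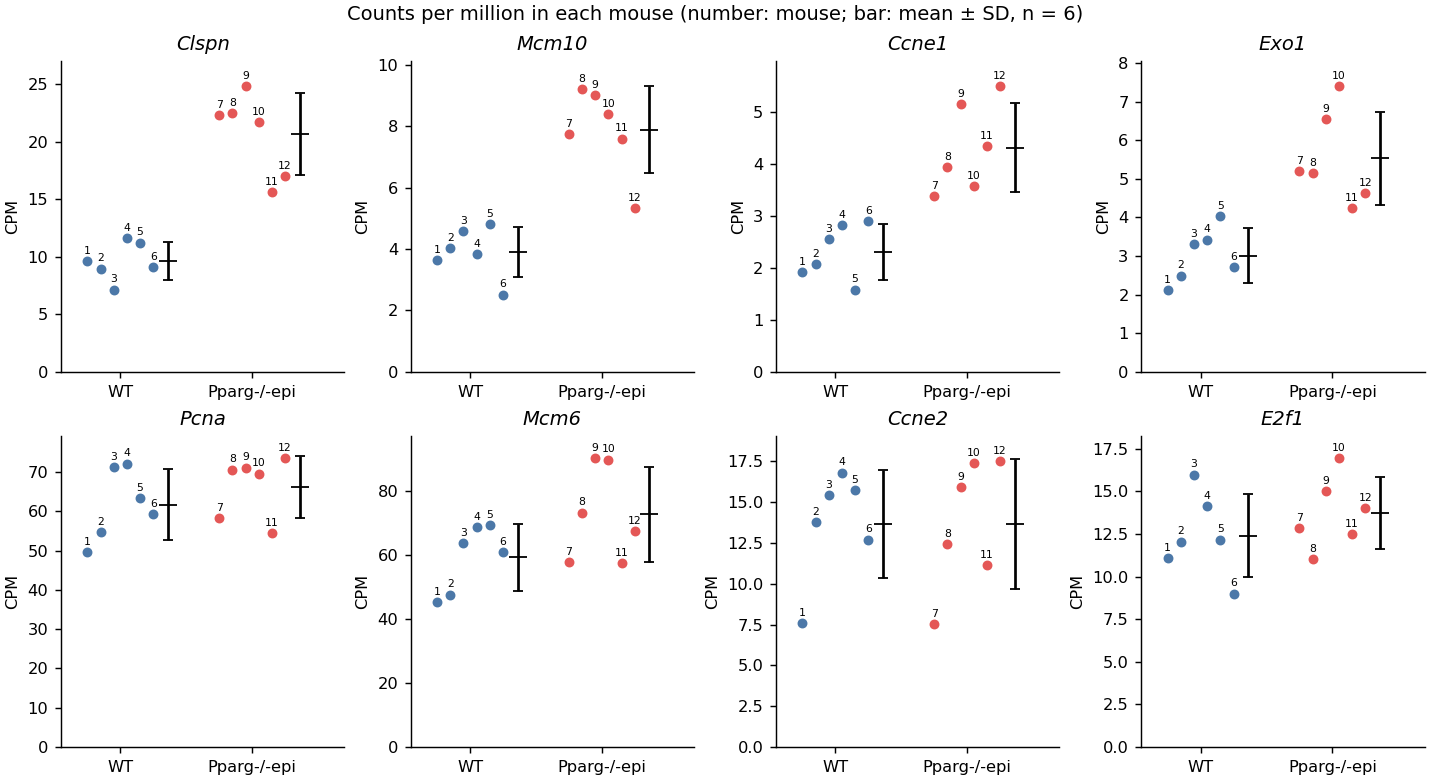
Scaled counts (CPM) of 8 members in each mouse, with the y axis from 0, the mouse number above each point and the mean ± SD of 6 mice at the side. In the upper row (Clspn, Mcm10, Ccne1 and Exo1) all Pparg-/-epi mice lie above all WT mice, and in the lower row (Pcna, Mcm6, Ccne2 and E2f1) the groups overlap.

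Claspin (Clspn) is an adaptor that travels with the fork, sets its speed and passes the signal from the kinase Atr to Chk1 when a fork stalls. It was at 9.65, 8.97, 7.14, 11.6, 11.2 and 9.13 CPM in WT mice 1 to 6 and at 22.3, 22.5, 24.8, 21.7, 15.6 and 17.0 CPM in Pparg-/-epi mice 7 to 12. All Pparg-/-epi mice were above the highest WT mouse, and mice 11 and 12 were the nearest to it. The means were 9.62 ± 1.64 CPM (SD, n = 6) and 20.7 ± 3.55 CPM (SD, n = 6), a 2.15-fold rise. The log2 fold change was 1.10 (standard error, SE, 0.15, adjusted p = 0.000762), the highest of the 48 members.

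Mcm10 helps to switch on the loaded helicase. Its levels were 3.64, 4.03, 4.58, 3.83, 4.82 and 2.52 CPM in WT mice and 7.75, 9.22, 9.02, 8.40, 7.60 and 5.33 CPM in Pparg-/-epi mice. Mouse 12 stood apart at the low end of its group but still above every WT mouse. The rise was 2.02-fold, a log2 fold change of 1.02 (SE 0.19, adjusted p = 0.00437).

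Ccne1 encodes cyclin E1, which activates Cdk2 at the entry into S phase. It was at 1.92, 2.07, 2.56, 2.82, 1.58 and 2.90 CPM in WT mice and at 3.38, 3.94, 5.15, 3.58, 4.34 and 5.50 CPM in Pparg-/-epi mice. The highest WT mice, 4 and 6, came close to the lowest Pparg-/-epi mouse without reaching it. The log2 fold change was 0.90 (SE 0.21, adjusted p = 0.0136), a 1.87-fold rise. In females alone the log2 fold change was 0.69 with an adjusted p of 0.179.

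Exo1 is a nuclease that trims DNA ends in mismatch repair and at broken or stalled forks. It had 2.11, 2.49, 3.30, 3.43, 4.03 and 2.71 CPM in WT mice and 5.20, 5.15, 6.54, 7.40, 4.25 and 4.64 CPM in Pparg-/-epi mice. Mouse 11 was just above WT mouse 5, and the other Pparg-/-epi mice lay farther above. The rise was 1.84-fold, a log2 fold change of 0.88 (SE 0.21, adjusted p = 0.0143). With the breeding numbers as 2 blocks in the model the log2 fold change of Exo1 was 0.85 and the adjusted p 0.0628.

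Replication genes are known targets of E2F factors, which bind a short GC-rich element near the start of transcription. RefSeq promoters of the mm10 build (GRCm38.p6), reaching from 250 bases before to 50 bases after the start, were at hand for 37 of the 48 members, with 41 promoters in all. An E2F core (TTTCGCGC, TTTGGCGC or TTTCCCGC on either strand) was present in 36.6% of these 41 promoters, 3.08% of the promoters of genes in the table and 1.84% of all 32851 promoters. CCAAT, the element of NF-Y, was in 65.9% of the member promoters, 37.04% of those of genes in the table and 37.4% of all promoters. TTTGAA, the CHR element of genes of the later cell cycle, was in 14.6%, 12.4% and 17.9%, between the other shares. The 15 members with an E2F core had a median log2 fold change of 0.30, and the 22 members without it 0.26, and each set held 3 of the genes past the adjusted p.

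Promoters of 3 members past the adjusted p with and without an E2F core (Clspn, Mcm10 and Mcm3), of Ccne1, in which none of the words was found, and of Mcm6, which has a dense group of E2F cores but was not called, are shown 5′ to 3′. Capitals mark E2F cores and CCAAT on either strand, and the start lies at base 251 of each.
Clspn, chr4:126556730-126557029, strand +: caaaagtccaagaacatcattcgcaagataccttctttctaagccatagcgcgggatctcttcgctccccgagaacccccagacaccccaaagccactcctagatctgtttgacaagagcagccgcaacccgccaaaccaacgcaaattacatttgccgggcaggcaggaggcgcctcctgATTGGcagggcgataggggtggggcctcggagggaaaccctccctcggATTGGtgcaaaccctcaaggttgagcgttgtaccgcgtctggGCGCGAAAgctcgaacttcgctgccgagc
Mcm3, chr1:20820263-20820562, strand -: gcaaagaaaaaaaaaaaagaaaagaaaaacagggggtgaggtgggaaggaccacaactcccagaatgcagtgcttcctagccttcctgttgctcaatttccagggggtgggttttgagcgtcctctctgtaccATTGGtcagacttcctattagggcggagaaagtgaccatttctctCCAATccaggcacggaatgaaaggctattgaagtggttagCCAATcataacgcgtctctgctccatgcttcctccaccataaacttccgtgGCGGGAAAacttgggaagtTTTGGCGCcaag
Mcm6, chr1:128359656-128359955, strand -: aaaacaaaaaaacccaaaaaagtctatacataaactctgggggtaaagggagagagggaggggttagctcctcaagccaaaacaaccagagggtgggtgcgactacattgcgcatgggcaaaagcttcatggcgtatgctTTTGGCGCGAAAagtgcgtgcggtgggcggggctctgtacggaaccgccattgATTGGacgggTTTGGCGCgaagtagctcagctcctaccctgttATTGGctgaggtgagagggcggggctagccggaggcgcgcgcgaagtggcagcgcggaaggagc
Mcm10, chr2:5012742-5013041, strand -: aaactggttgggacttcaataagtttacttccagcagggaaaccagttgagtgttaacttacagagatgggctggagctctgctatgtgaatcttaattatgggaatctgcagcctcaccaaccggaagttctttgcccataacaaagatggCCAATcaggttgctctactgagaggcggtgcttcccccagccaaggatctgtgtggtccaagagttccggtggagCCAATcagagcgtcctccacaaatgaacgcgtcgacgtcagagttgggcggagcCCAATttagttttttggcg
Ccne1, chr7:38107441-38107740, strand -: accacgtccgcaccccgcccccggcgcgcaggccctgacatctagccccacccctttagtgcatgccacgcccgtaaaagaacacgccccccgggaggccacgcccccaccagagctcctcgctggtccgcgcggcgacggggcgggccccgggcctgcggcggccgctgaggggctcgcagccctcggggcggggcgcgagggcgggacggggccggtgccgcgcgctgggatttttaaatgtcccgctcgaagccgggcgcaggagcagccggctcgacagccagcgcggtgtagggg

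In the Clspn promoter the E2F core lay on the reverse strand from 22 to 29 bases into the transcript, and CCAAT was found on the reverse strand 69 and 21 bases before the start. The Mcm3 promoter held E2F cores 20 to 27 and 39 to 46 bases after its start and CCAAT in 3 places. The gene models counted for Mcm3 and Mcm6 begin farther downstream, at bases 20820213 and 128359656. Positions given for these genes therefore hold for the promoter starts alone. In Mcm6, E2F cores on both strands overlapped from 110 to 99 bases before the start, and another lay from 47 to 40 bases before it. Mcm10 showed CCAAT in 3 places and no E2F core of these letters. A match is a description of the letters and does not show that a factor binds there, and promoters differing in these letters can still be bound.

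Among the 8 genes of origin licensing every fold change was above 0, with a median of 0.29. Mcm3, a helicase subunit, ran from 15.7 to 32.6 CPM with a median of 23.6 in WT mice and from 29.5 to 41.5 CPM with a median of 33.5 in Pparg-/-epi mice. WT mouse 5, at 32.6 CPM, was the only WT mouse above the lowest Pparg-/-epi mouse, and the log2 fold change was 0.55 (SE 0.16, adjusted p = 0.0329). Cdc6, which loads the helicase, ran from 6.26 to 10.4 CPM in WT mice and from 9.00 to 17.2 CPM in Pparg-/-epi mice, for a log2 fold change of 0.58 (SE 0.18, adjusted p = 0.0458). Cdc6 was thus within reach of the fold threshold, and mouse 7 overlapped the WT mice.

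The other helicase subunits were higher on average but did not pass the test. Mcm2 was at 17.6, 24.0, 36.2, 29.8, 37.8 and 28.2 CPM in WT mice and at 27.2, 33.4, 41.5, 45.5, 34.4 and 30.2 CPM in Pparg-/-epi mice, for a log2 fold change of 0.29 (SE 0.18, adjusted p = 0.324). Mcm6 was at 45.3, 47.6, 63.8, 68.6, 69.3 and 60.8 CPM in WT mice and at 57.8, 73.2, 90.3, 89.8, 57.5 and 67.5 CPM in Pparg-/-epi mice, for a log2 fold change of 0.30 (SE 0.15, adjusted p = 0.214). In both genes WT mouse 1 was the lowest of all mice and Pparg-/-epi mice 9 and 10 the highest. Mcm5 differed by 0.53 on the log2 scale (adjusted p = 0.0724), Mcm4 by 0.25 (adjusted p = 0.211) and Mcm7 by 0.24 (adjusted p = 0.194). The remaining gene of this role is Gmnn, geminin, which holds Cdt1 back after origins have fired.

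Helicase activation counted 4 genes, and of these Mcm10 alone was altered. The GINS subunit Gins1 differed by 0.43 on the log2 scale (SE 0.28, adjusted p = 0.342) with WT values from 2.43 to 9.01 CPM. Gins2, another GINS subunit, and Cdc45 make up the rest of this role. Gins2 lies opposite Gse1 on the other strand for 67.3% of its exonic bases, and whether strand was used in counting is not given in the sources used here.

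The polymerases, the clamp and the other fork proteins moved least, with a median log2 fold change of 0.04 over 10 genes and none past the test. Pcna, the sliding clamp and a common mark of cycling cells, was at 49.6, 54.7, 71.4, 72.2, 63.3 and 59.3 CPM in WT mice and at 58.3, 70.6, 71.2, 69.6, 54.5 and 73.6 CPM in Pparg-/-epi mice. The groups overlapped almost wholly, and the log2 fold change was 0.10 (SE 0.11, adjusted p = 0.594). Pcna was also the most abundant member per length of transcript, at 52.6 RPKM (CPM per 1000 bases) in Pparg-/-epi mice, while Exo1 was the least abundant, at 1.0045 RPKM. A Pcna pseudogene makes its count slightly uncertain, since 13.8% of Pcna's stretches of 75 bases are shared with other transcripts. Prim1, the catalytic primase, had the lowest fold change of all members, -0.37 (SE 0.25, adjusted p = 0.367), with WT values from 26.9 to 74.6 CPM. Fen1, which removes flaps between Okazaki fragments, had 0.31 (adjusted p = 0.257). It lies opposite Gm10143 on the other strand for 78.8% of its exonic bases, so its count is uncertain if strand was not used in counting.

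Genes of nucleotide supply were higher on average, and none passed the test. Rrm1, the large subunit of ribonucleotide reductase, differed by 0.29 on the log2 scale (SE 0.11, adjusted p = 0.0898). Rrm2, its small subunit, was at 26.8, 18.999, 35.5, 31.5, 33.5 and 29.1 CPM in WT mice and at 30.7, 33.8, 29.3, 37.1, 30.4 and 32.2 CPM in Pparg-/-epi mice. WT mouse 2 was the low point of Rrm2 and the groups otherwise overlapped, with a log2 fold change of 0.14 (SE 0.14, adjusted p = 0.531).

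In the 8 genes of chromatin and histone supply the median log2 fold change was 0.18, and none passed the test. Uhrf1, which reads newly copied, half-methylated DNA for the maintenance methyltransferase, was at 18.0, 20.7, 39.6, 38.9, 41.6 and 32.2 CPM in WT mice and at 38.5, 41.7, 47.3, 58.9, 38.3 and 38.9 CPM in Pparg-/-epi mice. WT mice 1 and 2 were far below the rest, WT mice 3 to 5 lay among the Pparg-/-epi mice, and the log2 fold change was 0.47 (SE 0.21, adjusted p = 0.159). Hells, a chromatin remodeler, had 0.35 (adjusted p = 0.364). Chaf1b, of the histone chaperone CAF-1, had 0.33 (adjusted p = 0.301), and Atad2, an ATPase on new chromatin, 0.26 (adjusted p = 0.322). Casp8ap2, needed for histone transcription, was below 0 at -0.18 (adjusted p = 0.401).

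Fork protection and repair had the highest median of the 7 roles, 0.50 over 11 genes, with Clspn and Exo1 altered. Rad51ap1, which acts in repair by recombination, differed by 0.76 on the log2 scale (SE 0.25) and missed the threshold with an adjusted p of 0.0551. Brip1, a helicase that works with Brca1, had 0.60 (SE 0.32, adjusted p = 0.238). Blm, the Bloom helicase, had 0.57 (SE 0.24, adjusted p = 0.128). Ung, which cuts uracil from DNA, had 0.50 (adjusted p = 0.220), and Dtl, which directs Cdt1 to destruction in S phase, 0.49 (adjusted p = 0.103). Tipin, which holds Timeless at the fork, had 0.27 (adjusted p = 0.206).

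Of the 4 G1/S regulators Ccne1 was altered and E2f8 passed the adjusted p alone. E2f8, an atypical E2F that represses E2F targets late in S phase, ran from 16.5 to 22.0 CPM with a median of 17.0 in WT mice and from 21.6 to 29.4 CPM with a median of 24.1 in Pparg-/-epi mice. WT mouse 6 alone overlapped, with a log2 fold change of 0.42 (SE 0.11, adjusted p = 0.0235). E2f1, the activator, was at 11.1, 12.0, 16.0, 14.1, 12.2 and 9.00 CPM in WT mice and at 12.8, 11.0, 15.0, 17.0, 12.5 and 14.0 CPM in Pparg-/-epi mice, for a log2 fold change of 0.15 (SE 0.15, adjusted p = 0.575). Ccne2, which encodes cyclin E2, was at 7.61, 13.8, 15.5, 16.8, 15.7 and 12.7 CPM in WT mice and at 7.54, 12.4, 15.9, 17.4, 11.1 and 17.5 CPM in Pparg-/-epi mice. Its groups overlapped fully, with a log2 fold change of -0.00 (SE 0.23, adjusted p = 0.995), and its exons overlap Ints8 on the other strand over 17.4% of their bases. Per length, Ccne2 was at 4.25 RPKM in WT and 4.24 RPKM in Pparg-/-epi mice, and Ccne1 at 1.18 RPKM and 2.21 RPKM. Whether the changes of Ccne1 and Ccne2 differ was not tested.

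The 17 members without values of their own here were Gmnn, Cdc45, Gins2, Pola1, Pold3, Rfc2, Rfc3, Rfc4, Rpa2, Dscc1, Tyms, Cdca7, Nasp, Slbp, Usp1, Wdr76 and Ubr7. Pola1 and Pold3 are polymerase subunits, Rfc2 to Rfc4 and Dscc1 load clamps, Rpa2 covers single strands, Tyms makes thymidylate, and Slbp binds histone mRNA. Their log2 fold changes lay between -0.09 and 0.23, and the lowest adjusted p among them was 0.432.

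**Figure D2:**
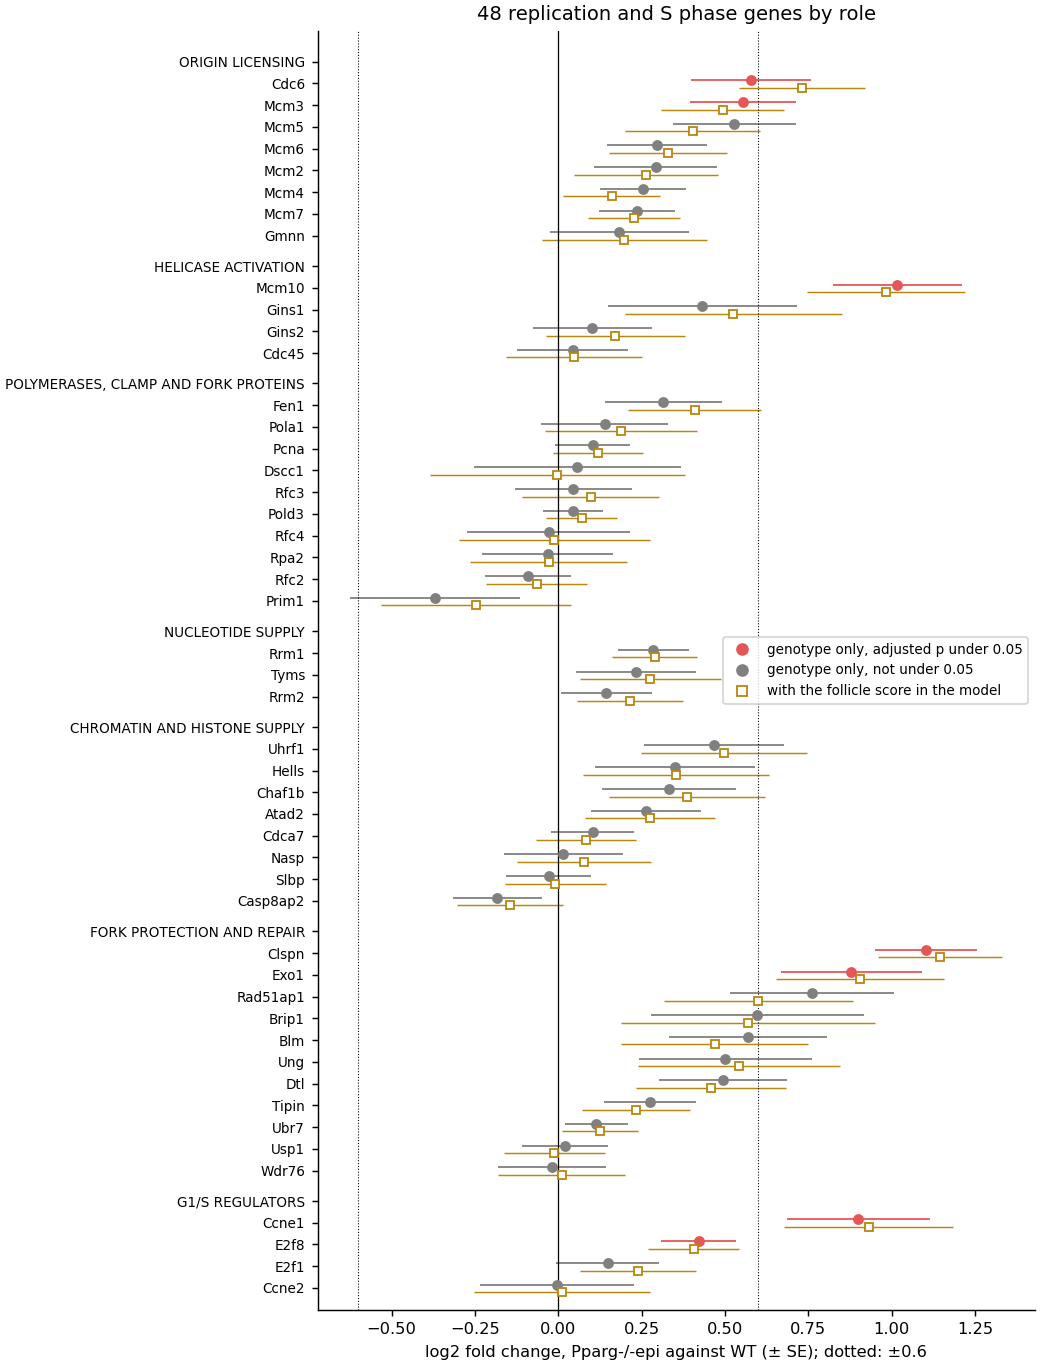
Log2 fold change of each of the 48 members, Pparg-/-epi against WT, with its SE, grouped by role, from the model with genotype alone (circles, red at an adjusted p under 0.05) and with the follicle score added (open squares). Clspn at 1.10 and Mcm10 at 1.02 lie farthest to the right and Prim1 at -0.37 farthest to the left, and the squares stay near the circles.

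Growing hair follicles hold many dividing cells, and a scraping can take more or less of them. A follicle score was therefore formed as the mean log2 CPM of Krt25, Krt26, Krt27, Krt28 and Krt71, keratins of the inner root sheath. Summed over the 5 keratins, WT mice had 2.05, 868, 78.3, 2.08, 85.7 and 307.5 CPM, and Pparg-/-epi mice 697, 2290.5, 228, 81.7, 232 and 156 CPM. In WT mouse 1, Krt25 and Krt26 were at 0 counts and Krt27 and Krt71 at 1 count. The score averaged 2.82 ± 3.50 (SD, n = 6) in WT and 5.55 ± 1.71 (SD, n = 6) in Pparg-/-epi mice. The difference of 2.74 did not pass the test (p = 0.128 by a two-sided exact permutation test, 0.260 when adjusted over 5 such scores).

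The members' fold changes stayed close to their values with this score in the model. The median over the 48 members was 0.24 with the score as without it, and 0 members had a follicle slope past an adjusted p of 0.05, where 0.654% of all genes had one. At an unadjusted p under 0.05 (edgeR), 0 members and 683 of all genes had such a slope. With the score, 5 members (10.4%) were altered, against 3.09% of all genes altered and higher in that fit, and the same 5 passed the adjusted p alone, against 4.08% of all genes. These were Clspn (log2 fold change 1.15, adjusted p = 0.00364), Mcm10 (0.98, adjusted p = 0.0252), Ccne1 (0.93, adjusted p = 0.0425), Exo1 (0.90, adjusted p = 0.0455) and Cdc6 (0.73, adjusted p = 0.0330). Mcm3 and E2f8 kept log2 fold changes of 0.49 and 0.41 but had adjusted p of 0.125 and 0.0896.

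The calls of this fit, other than that of Clspn, depended on single mice. Leaving out each mouse in turn, between 1 and 5 of the 48 members were altered. In these fits between 292 and 723 of the 14533 genes were altered and higher, the most without WT mouse 2. Clspn was altered in all 12 such fits, Mcm10 in 8, Cdc6 in 4, and Exo1 and Ccne1 in 2 each. Without WT mouse 2, which had the most follicle keratin of the WT mice, Clspn alone remained, as it did without Pparg-/-epi mouse 9 or mouse 10. The sizes moved less than the calls: the log2 fold change stayed between 1.06 and 1.22 for Clspn, 0.80 and 1.10 for Mcm10, 0.83 and 1.08 for Ccne1, and 0.76 and 1.03 for Exo1. In the 7 females alone 0 members were altered with the score in the model, against 1.04% of all genes altered and higher, although the log2 fold change of Clspn was 1.20 (adjusted p = 0.0547) and that of Mcm10 1.30 (adjusted p = 0.0691). At an unadjusted p under 0.05 (edgeR), 9 members were higher in that fit, a cut at which the share of all genes was not counted.

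**Figure D3:**
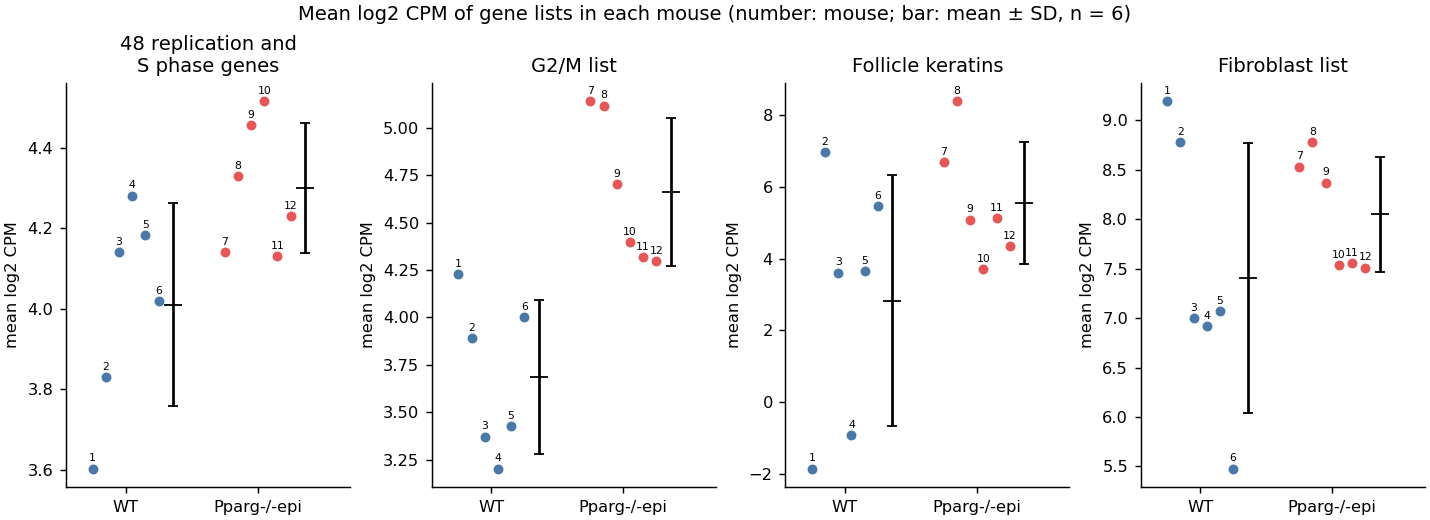
Mean log2 CPM of the 48 members, of the G2/M list, of the 5 follicle keratins and of the fibroblast list in each mouse, with the mouse number above each point and the mean ± SD of 6 mice at the side. WT mice 1 and 2 are the lowest for the members and the highest of the WT mice for the fibroblast list.

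The members varied together between mice of the same group. Their mean log2 CPM was 3.60, 3.83, 4.14, 4.28, 4.18 and 4.02 in WT mice and 4.14, 4.33, 4.46, 4.52, 4.13 and 4.23 in Pparg-/-epi mice, so WT mice 1 and 2 lay low and WT mice 3 to 5 reached the lower Pparg-/-epi mice. Of the 48 members, WT mouse 1 had the lowest value of all 12 mice in 23 and WT mouse 2 in 11. Pparg-/-epi mouse 10 had the highest in 16 and mouse 9 in 13. The median log2 fold change of the members was 0.17 without WT mouse 1 and 0.20 without WT mouse 2. These mice are also the only WT mice outside the breeding number that the rest of the WT group shares. By the labels they are the youngest WT mice, and their RNA integrity numbers (RIN) were the highest of the WT group. Breeding number, age and RIN thus split the WT mice in the same way, and which of them goes with the low values was not tested.

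**Figure D4:**
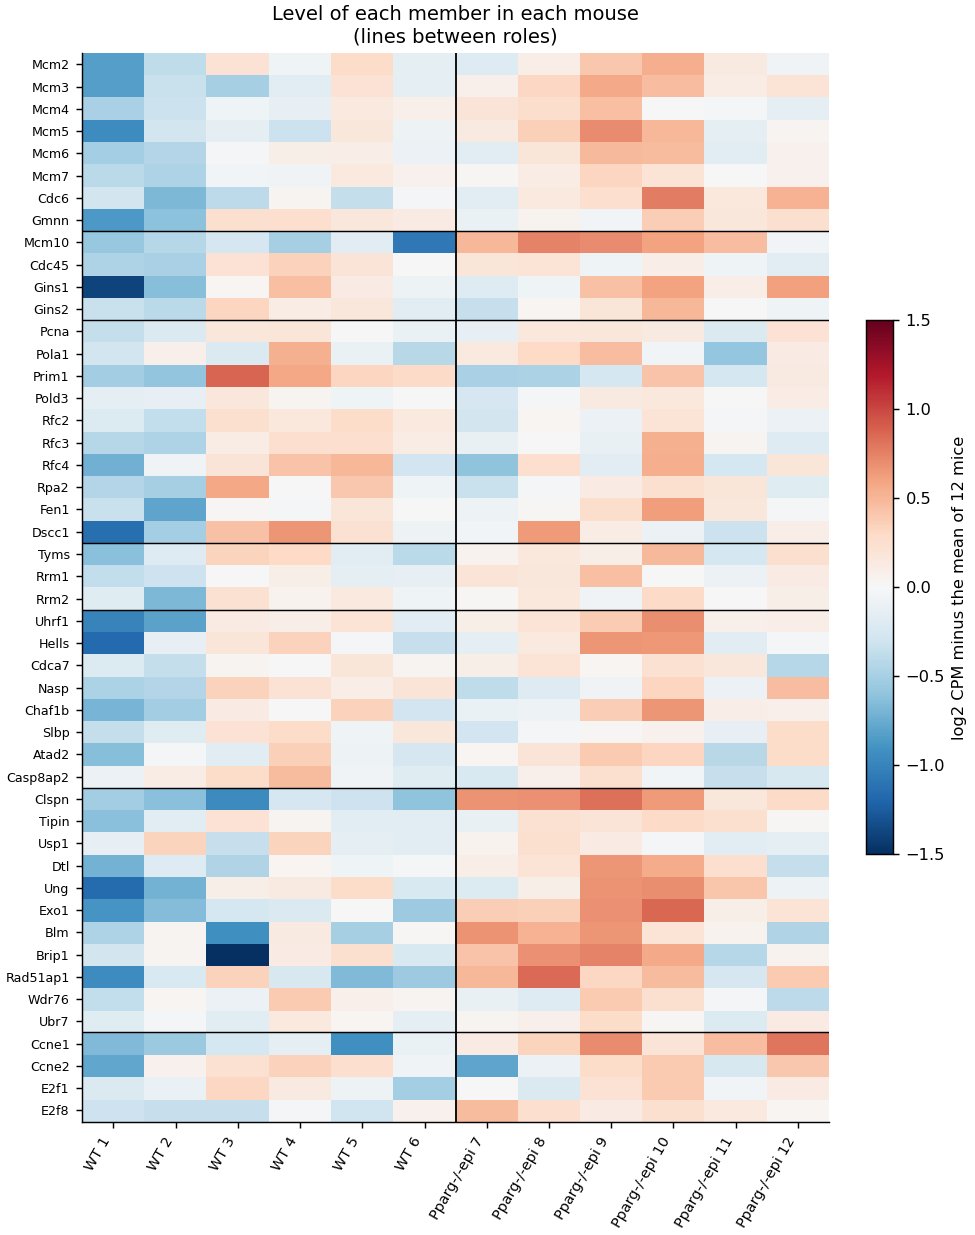
Log2 CPM of each member in each mouse less the mean of the 12 mice, in the order of the roles, which horizontal lines separate. The columns of WT mice 1 and 2 are mostly blue (low) and those of Pparg-/-epi mice 9 and 10 mostly red (high), while Clspn and Mcm10 are higher in every Pparg-/-epi mouse than in any WT mouse.

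Fibroblast genes were also high in both of these low WT mice. The mean log2 CPM of the 9 fibroblast genes was 9.19 and 8.78 in WT mice 1 and 2, from 5.48 to 7.07 in the other WT mice, and from 7.51 to 8.78 in Pparg-/-epi mice. The difference between the groups in it did not pass the test (p = 0.307 by a two-sided exact permutation test, 0.384 when adjusted over the 5 scores). Of the 9 genes, 0 passed edgeR's test, with 0 at an unadjusted p under 0.05. With the fibroblast score in the model, 9 members (18.8%) were altered, against 5.56% of all genes altered and higher in that fit. They were Mcm3, Mcm5, Cdc6, Mcm10, Gins1, Uhrf1, Clspn, Exo1 and Ccne1, and E2f8 and Mcm7 joined them among the 11 (22.9%) past the adjusted p, against 8.15% of all genes. The log2 fold change in that fit was 0.69 for Uhrf1 (adjusted p = 0.0208) and 0.65 for Mcm3 (adjusted p = 0.0147). Gmnn, Gins1, Prim1 and Nasp fell with the fibroblast score at an adjusted p under 0.05, which are 8.33% of the members where 4.66% of all genes did so.

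Endothelial genes were higher on average in Pparg-/-epi mice. All 7 had a log2 fold change above 0, with a median of 1.15, and Emcn, which encodes endomucin, was altered (1.79, adjusted p = 0.0340). Their mean log2 CPM was 1.77 ± 1.60 (SD, n = 6) in WT and 3.43 ± 1.04 (SD, n = 6) in Pparg-/-epi mice (p = 0.0584 by a two-sided exact permutation test, 0.260 when adjusted over the 5 scores), and with this score in the model, an alternative added after seeing the data, 8 members were altered, against 4.53% of all genes altered and higher in that fit. With follicle and fibroblast scores together, also added later, 6 members were altered, against 4.63% of all genes. Basal keratinocyte genes averaged 8.89 ± 0.19 in WT and 8.95 ± 0.18 in Pparg-/-epi mice (SD, n = 6, p = 0.597 by a two-sided exact permutation test, also when adjusted), and of the 10 genes Krt14 alone was altered.

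Markers of some other cells moved with the genotype, and no model held the mast cell, stress keratin or sebocyte lists. The 6 mast cell genes were all altered and higher, with a median log2 fold change of 1.57, and summed from 20.02 to 95.3 CPM in WT and from 136 to 246 CPM in Pparg-/-epi mice. Of the 4 stress keratins, made by keratinocytes of wounded or irritated skin, 3 were altered and higher (Krt6a, Krt16 and Krt17), and their sum ran from 457 to 1750.5 CPM and from 2858 to 5410 CPM. Of the 9 sebocyte genes 6 were altered and lower, with sums from 538 to 2923 CPM in WT and from 204 to 317 CPM in Pparg-/-epi mice, and Scd3, Fa2h and Awat1 were at 0 counts in at least 1 mouse. The groups did not overlap in any of these 3 sums. Ivl of the 7 suprabasal genes and Cd8a of the 7 T cell genes were altered and higher, and Cd3e of the latter and Gata3 of the 20 hair matrix and cortex genes altered and lower. No gene of the melanocyte (5), myeloid (10) or skeletal muscle (7) lists was altered, with 0, 0 and 5 at an unadjusted p under 0.05 (edgeR), none altered with DESeq2, and 2 of the muscle genes altered with the likelihood ratio test. With the score of the hair matrix and cortex list in the model 5 members were altered, where 528 of the 14533 genes were altered and higher. The part of the other lists of this paragraph in the members' changes was not tested.

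Genes of the neighbouring steps of the cell cycle were set beside the members from lists chosen by name. The 33 genes of the G2/M list, which carry out mitosis, moved far more: 28 (84.8%, against 7.54% of all genes) rose at an adjusted p under 0.05. The 1 gene that fell was Ttk, a spindle checkpoint kinase. Of the 33, 26 (78.8%, against 5.19% of all genes) were altered and higher. In 15 of the 33 (45.5%, against 3.95% of all genes) the groups did not overlap, with all knockouts above. Their median log2 fold change was 1.04, against 0.24 for the members. Top2a, which untangles copied DNA, went from 63.7 ± 14.02 to 131 ± 35.5 CPM (log2 fold change 1.04, adjusted p = 0.00361), and the mitotic kinase Cdk1 from 9.53 ± 2.04 to 19.2 ± 4.89 CPM (1.01, adjusted p = 0.00470, SD, n = 6). Cyclin A2 (Ccna2) and the kinetochore gene Ndc80 had log2 fold changes of 1.12 and 0.98. No test compared the G2/M list with the members.

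The G2/M calls depended on the mice and on the model. Leaving out each mouse in turn, between 15 and 29 of its genes were altered and higher: 15 without Pparg-/-epi mouse 8, 16 without mouse 7, and 17 without mouse 9 or without WT mouse 5. Between 512 and 1303 of the 14533 genes were altered and higher in these fits. With the follicle score in the model 11 of its genes (33.3%, against 3.09% of all genes) were altered and higher, and the median was 0.91. With the breeding numbers as 2 blocks 4 were altered and higher, against 3.05% of all genes. Among the later breeding numbers alone 0 were, against 1.82% of all genes. At an unadjusted p under 0.05 (edgeR) 16 were higher, a cut at which the share of all genes was not counted. Both fits draw the genotype difference from the same later mice. Its mean log2 CPM was 4.23, 3.89, 3.37, 3.20, 3.43 and 4.00 in WT mice and 5.14, 5.12, 4.70, 4.40, 4.32 and 4.30 in Pparg-/-epi mice. WT mouse 1, the lowest of all mice for the replication genes, was thus the highest WT mouse for G2/M, and WT mouse 4, the highest WT mouse for the replication genes, was the lowest for G2/M. Pparg-/-epi mice 7, 8 and 9, the highest for G2/M, are those of earlier breeding numbers than any WT mouse, and all are females. Mice 7 and 8 also had the most follicle keratin of that group. WT mouse 1, however, had the lowest sum of follicle keratins of all mice, 2.05 CPM. Breeding number, sex and follicle content were not told apart here.

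**Figure D5:**
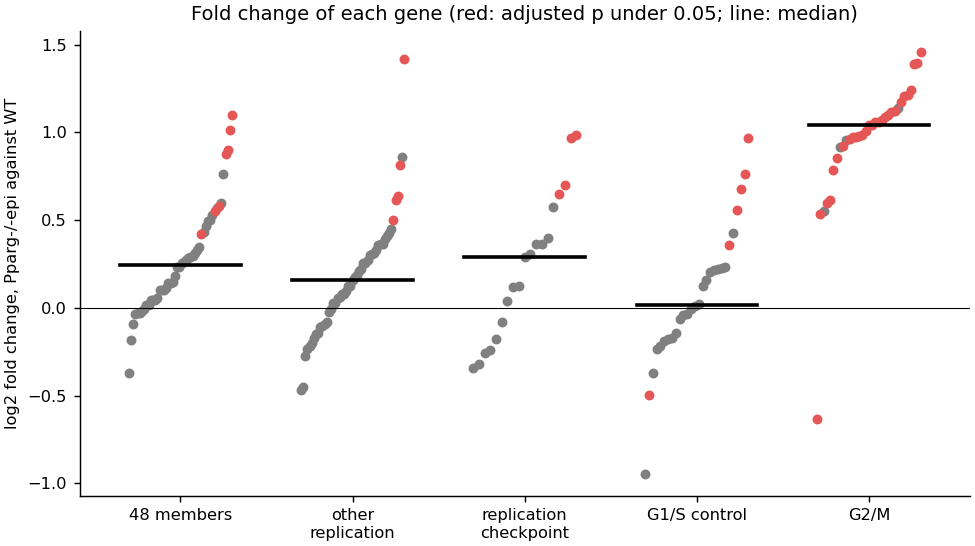
Log2 fold change of each gene, Pparg-/-epi against WT, for the 48 members and the lists of other replication, replication checkpoint, G1/S control and G2/M genes, sorted within each list, with genes at an adjusted p under 0.05 in red and the median as a line. The medians of the members (0.24) and of G2/M (1.04) are the values given in the text.

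A few of the other replication genes were higher in Pparg-/-epi mice. Of 49 in the table, 5 rose at an adjusted p under 0.05 (10.2%, against 7.54% of all genes), 4 of them altered (8.16%, against 5.19%), where 3.69 and 2.54 would be counted at the share of all genes, and 0 fell (3 at an unadjusted p under 0.05, edgeR), with a median log2 fold change of 0.16. Dbf4, the activator of the kinase Cdc7 that fires origins, rose from 12.8 ± 1.09 to 22.5 ± 2.97 CPM (log2 fold change 0.81, adjusted p = 0.000710). Ticrr, which brings Cdc45 to the helicase, rose from 4.08 ± 1.13 to 10.9 ± 2.34 CPM (1.42, adjusted p = 0.00124), more than any member. The histone chaperone Asf1b rose by 0.64 (adjusted p = 0.00650) and Smc2, of condensin, by 0.50 (adjusted p = 0.0113). With the follicle score in the model 5 of these genes (10.2%, against 4.08% of all genes) rose past the adjusted p. Of these, 4 (8.16% of the list, against 3.09% of all genes) were altered.

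Of 19 genes of the replication checkpoint and fork repair, 4 (21.1%, against 5.19% of all genes) were altered, all higher, and the median was 0.29. Rad18, the ubiquitin ligase that marks Pcna at damaged templates, rose from 5.68 ± 0.79 to 11.1 ± 1.63 CPM (log2 fold change 0.97, adjusted p = 0.00121). Brca1 (0.98, adjusted p = 0.0207) and its partner Bard1 (0.70, adjusted p = 0.0349), which act in repair by recombination, were also among them. With the follicle score in the model 1 of the 19 was altered and higher (5.26%, against 3.09% of all genes), where 0.587 would be counted at the share of all genes.

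Among 28 genes of G1/S control, 5 rose (17.9%, against 7.54% of all genes) and 1 fell at an adjusted p under 0.05, and the median was 0.02. E2f3, an activating E2F, rose from 8.10 ± 2.08 to 15.9 ± 1.80 CPM (log2 fold change 0.97, adjusted p = 0.00353). E2f2, a related activator, rose by 0.68 (adjusted p = 0.0137), and Tfdp1, the partner that E2F factors need to bind DNA, by 0.36 (adjusted p = 0.0149). Rb1, which holds activating E2F factors back, fell by 0.50 on the log2 scale, from 112 ± 19.5 to 79.5 ± 3.87 CPM (adjusted p = 0.00855). With the follicle score in the model E2f3 (0.91, adjusted p = 0.0198), Tfdp1 (0.43, adjusted p = 0.0190) and Rb1 (-0.45, adjusted p = 0.0439) passed the adjusted p. The 2 that rose are 7.14% of the list, against 4.08% of all genes.

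Whether the change with genotype differed between the sexes was tested by an interaction term. The interaction of genotype and sex passed an adjusted p of 0.05 (edgeR's quasi-likelihood test) in 0 of the 14533 genes, and 741 genes had an unadjusted p under 0.05. Of the members 1, Cdc6, was among the latter, with an adjusted p of 0.895.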

How the data were processed

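Dorsal epidermis was scraped from 12 mice, and mRNA libraries were prepared with a KAPA kit. Per the labels and the study's methods, the authors aligned reads to mm10 with STAR 2.5.2b and assigned them to genes with featureCounts of Subread 1.5.1, and the strand setting is not given in the sources used here. The authors deposited unnormalized counts for 14533 genes, and 2800 blank rows were dropped. Every gene had over 0.5 CPM in at least 6 libraries. The table of counts holds 2 columns, of Pparg-/-epi mice 11 and 12, that were matched to samples through the study's run sheet.

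Counts were normalized by TMM and compared with edgeR's quasi-likelihood F test (edgeR 4.0.16, R 4.3.3) on genotype, with Benjamini-Hochberg adjustment over all genes. The study describes the WT mice as littermates or sibling controls, and litter was not in the model. Mice that share a breeding number may be related, while the p-values treat every mouse as independent. Scores are mean log2 CPM with a prior count of 2 and were compared by exact permutation tests over all 924 splits (scipy 1.17.1). The members, roles and lists were chosen with earlier results of these data known. Values are given for every mouse for altered members and 8 members set by name (Ccne1 is in both), and for other members with an unadjusted p under 0.2. Fits were tested on simulated data. Alternatives were the likelihood ratio test that the study used, DESeq2 1.42.0, other scaling, a filter of 10 counts, covariates, females alone and leaving out each mouse. Shared sequence was counted in 75-base stretches of GENCODE transcripts, on either strand. Some genes of the lists are not reported here by name. Figures were drawn with matplotlib.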

Additional observations from a re-analysis of the deposited data

Results flagged for a closer look

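In 5 of 104 groups of 6 mice tested, 1 mouse stood apart from the others of its group by a gap past Dixon's 95% limit, given here as a share of the group's range in log2 CPM, and chance alone gives about 1 in 20. Pparg-/-epi mouse 12 was the lowest for Mcm10, at 5.33 CPM against 7.60 to 9.22 CPM in the others (gap 0.646 of the range). The same mouse was the lowest for Cdca7, at 28.2 CPM against 38.8 to 44.7 CPM (gap 0.689). Pparg-/-epi mouse 10 was the highest for Rfc3, at 18.1 CPM against 10.9 to 12.8 CPM (gap 0.68). WT mouse 3 was the lowest for Brip1, at 1.49 CPM against 5.05 to 7.27 CPM (gap 0.765). WT mouse 1 was the lowest for Ccne2, at 7.61 CPM against 12.7 to 16.8 CPM (gap 0.647).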

How the results depend on the processing

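No paired analysis was made, because the labels do not pair the mice. Only 1 breeding number was held by both groups, that of WT mouse 2 and Pparg-/-epi mouse 10. The number of altered members, 4 with all mice, was between 4 and 6 without 1 mouse, 2 in females and 1 among later breeding numbers. It was 5 with the likelihood ratio test, where 882 of the 14533 genes were altered and higher. It was also 5 with DESeq2, where 942 genes were. With the fibroblast score it was 9, and with the endothelial score 8. At an adjusted p under 0.05 there were 7, and between 4 and 7 without 1 mouse (4 without WT mouse 1 and 4 without Pparg-/-epi mouse 8). There were 4 with breeding blocks, 2 in females, 11 with the fibroblast score, 12 with the endothelial score and 1 among later breeding numbers. Of these alternatives, all genes were counted at this cut only for the fibroblast score. With the follicle score 5 members were altered, between 1 and 5 without 1 mouse, 3 with age added, 2 with breeding blocks and 0 in females, where edgeR called 151 genes of the table altered and higher. Clspn, Mcm10, Ccne1 and Exo1 kept their call in 110 of 116 fits, which share most of their mice. Fits with the follicle score that left out a mouse are not among these. In those, Clspn was altered in 12 of 12, Mcm10 in 8, and Exo1 and Ccne1 in 2 each. The 31 members with printed values kept direction and call in 848 of 899 fits, gained a call in 25, lost it in 6 and changed sign in 20. Of the 899 fits, 116 were of the 4 altered members. In the others a kept call means that the member stayed not altered, so the 848 say little about the altered genes. A loss of the adjusted p alone, as for E2f8 and Mcm3 in some fits, was not counted as a lost call. The sign changed only for Ccne2 and Prim1. Prim1 was at 0.043 with follicle and fibroblast scores and 0.22 with the endothelial score. Ccne2 was between -0.14 and 0.11 without 1 mouse, and at 0.01 with the filter of 10 counts, 0.0059 with sex, 0.059 with RIN, 0.0041 with age, 0.17 with breeding blocks, 0.011 with the follicle, 0.038 with the hair matrix, 0.12 with the fibroblast and 0.012 with the basal score, 0.12 with follicle and fibroblast scores, 0.21 with the endothelial score and 0.14 among later breeding numbers. The cause of these moves was not tested. Members near 3 CPM, such as Exo1 and Ccne1, rest on few reads.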
